A study of Homo sapiens with 12 samples.

Results

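The 52 genes described here carry out DNA replication and cell division, and they were followed among the 39099 genes of a transcriptome study of p63 in human pancreatic cancer cells. They were picked by name for their textbook function, by a rule that uses no measured value, although earlier results of these data were known when the list was drawn up. The S-phase set has 24 members. Of these, 12 license and fire replication origins and 6 act in DNA synthesis or make its precursors. The other 6 are grouped under entry into S phase, where MYBL2 was placed by the time of its transcription. The mitotic set has 28 members, of which 9 act at entry into mitosis, 7 in the spindle checkpoint and the degradation of its targets, 6 in chromosome structure and kinetochores, and 6 in the spindle. Each of the 52 was in the table, and each passed the filter on low values that left 14767 genes for testing.

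Cells were of 2 established human pancreatic cancer lines, AsPC-1 and PANC-1. Each line was studied as mock cells, as cells overexpressing TAp63 and as cells overexpressing deltaNp63, the long form of the transcription factor p63 and the form that lacks its N-terminal transactivation domain. The 6 groups held 2 libraries each, 12 in all, from samples that the labels call biological replicates. Nothing says that these were separate cultures, so the p-values measure only the spread between these libraries. How p63 was delivered, what the mock cells received, how long the cells were kept and whether a construct was studied in 1 clone are not given in the sources used here.

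Replication origins are licensed in G1 when ORC1, CDC6 and CDT1 load the MCM2-7 helicase onto DNA, and MCM10 and the GINS complex then help to fire it. Transcription of these genes is driven by E2F factors, which are held back by the retinoblastoma family until cyclin-dependent kinases act. Mitotic genes rise later, when B-MYB and FOXM1 join the MuvB core on a promoter element called the cell cycle genes homology region (CHR). p63 belongs to the p53 family, whose best known cell-cycle target is CDKN1A, the gene of the kinase inhibitor p21.

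Values are TPM, a transcript abundance corrected for transcript length and scaled to a common library total, summed over the transcripts of a gene. Thus levels can be compared between genes, but read depth is unknown. TP63 was at most 1.10 TPM in the mock libraries. It stood at 102 and 170 TPM with TAp63 and at 245 and 350 TPM with deltaNp63 in AsPC-1. The PANC-1 values were 324 and 342 TPM with TAp63 and 815 and 1187 TPM with deltaNp63. All 7 epithelial markers reached 1 TPM in every library. Of 4 mesenchymal markers, 2 in AsPC-1 and 3 in PANC-1 did, with sums of 2015 to 2378 TPM and 4336 to 4986 TPM that were nearly all VIM, the vimentin gene. Of 5 fibroblast markers 1 did in each line, LUM in AsPC-1 (177 to 288 TPM) and COL1A1 in PANC-1 (80.8 to 111 TPM), and PDGFRA was at most 0.128 TPM. Of 5 leukocyte markers, CD68 (90.8 to 126 TPM) and LYZ (102 to 130 TPM) did in AsPC-1 and CD68 (255 to 288 TPM) in PANC-1, while PTPRC, the pan-leukocyte CD45 gene, was at most 0.0102 TPM. The summed endothelial markers stayed at or below 0.312 TPM and the summed acinar and endocrine markers at or below 0.501 TPM. On the genes described here, the replicates of AsPC-1 deltaNp63 differed most. Replicate 1 was below replicate 2 for 46 of the 52 members. The median difference between these replicates on the log2(TPM + 1) scale was −0.69 for S-phase members and −0.33 for mitotic members, against −0.04 over all genes tested. With signs ignored, these replicates were also the farthest apart over all genes tested. Their median absolute difference was 0.211, against 0.092 to 0.148 in the other groups. The mock groups were as one-sided in count, by smaller amounts. For AsPC-1 mock, replicate 1 was higher for 47 members, with medians of 0.20 for S-phase and 0.14 for mitotic members. For PANC-1 mock it was higher for 44, with medians of 0.08 and 0.18. AsPC-1 mock replicate 1 was the highest library of its line for 23 of 24 S-phase members. Every AsPC-1 comparison with mock in the full model uses that library. In comparisons that use AsPC-1 deltaNp63 replicate 1, the medians of the S-phase and mitotic sets are given with and without it. Fold changes by gene, and medians by role or by transcript, are given only with it.

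The sequences before the transcription start differ between the sets, and 3 promoters of each are shown because they hold the element in question and belong to the most abundant members that do. Windows of 300 bases, from 250 before to 50 after a start, came from RefSeq on GRCh38.p14 and covered 43 of the 52 members with 54 windows. Both strands were searched for 3 E2F words (TTTCGCGC, TTTGGCGC and TTTCCCGC), for the CHR words TTTGAA and TTTAAA, and for CCAAT. No word lies inside another, and any of them may overlap at its ends. An E2F word was found in 14 of 26 S-phase windows (53.8%), in 4 of 28 mitotic windows (14.3%) and in 2.74% of all 35116 promoter windows. A CHR word was found in 5 of 26 S-phase windows (19.2%), in 22 of 28 mitotic windows (78.6%) and in 24% of all windows. CCAAT was found in 73.1%, 82.1% and 34.6% of these windows. Such a match describes the letters and does not show a site in use.

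The S-phase promoters belong to TYMS, the thymidylate synthase gene (chr18:657403-657652, plus strand), to PCNA, the sliding clamp of the DNA polymerases (chr20:5126623-5126872, minus strand), and to MCM7, a subunit of the helicase (chr7:100101398-100101647, minus strand). The 250 bases before the start are printed 5′ to 3′ in the direction of transcription, with the E2F words in capitals on either strand. The PCNA window belongs to a start 6664 bases from that of the most abundant PCNA transcript.
TYMS: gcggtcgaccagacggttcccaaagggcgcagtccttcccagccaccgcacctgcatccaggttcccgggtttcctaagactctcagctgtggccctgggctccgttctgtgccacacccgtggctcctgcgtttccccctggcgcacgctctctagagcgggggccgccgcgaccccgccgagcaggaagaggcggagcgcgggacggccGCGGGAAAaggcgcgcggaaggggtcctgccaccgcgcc
PCNA: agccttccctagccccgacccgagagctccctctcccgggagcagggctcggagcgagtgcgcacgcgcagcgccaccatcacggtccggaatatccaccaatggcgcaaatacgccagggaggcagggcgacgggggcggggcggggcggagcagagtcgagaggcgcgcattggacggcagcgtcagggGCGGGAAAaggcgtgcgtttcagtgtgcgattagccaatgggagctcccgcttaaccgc
MCM7: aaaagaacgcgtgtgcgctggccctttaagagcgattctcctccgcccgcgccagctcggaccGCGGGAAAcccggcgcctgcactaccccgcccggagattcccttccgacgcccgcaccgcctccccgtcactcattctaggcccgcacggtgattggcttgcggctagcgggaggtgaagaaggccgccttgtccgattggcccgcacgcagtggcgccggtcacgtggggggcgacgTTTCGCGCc

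The mitotic promoters belong to CDC20, which activates the ubiquitin ligase of anaphase (chr1:43358731-43358980, plus strand), to CCNB1, the cyclin B1 gene (chr5:69166900-69167149, plus strand), and to PTTG1, the securin gene (chr5:160421605-160421854, plus strand). Capitals mark the CHR words, and CDC20 holds 2.
CDC20: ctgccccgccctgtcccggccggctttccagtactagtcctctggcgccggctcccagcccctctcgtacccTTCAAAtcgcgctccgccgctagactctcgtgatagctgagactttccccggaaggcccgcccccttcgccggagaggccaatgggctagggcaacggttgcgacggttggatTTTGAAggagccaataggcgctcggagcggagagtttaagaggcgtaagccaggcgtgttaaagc
CCNB1: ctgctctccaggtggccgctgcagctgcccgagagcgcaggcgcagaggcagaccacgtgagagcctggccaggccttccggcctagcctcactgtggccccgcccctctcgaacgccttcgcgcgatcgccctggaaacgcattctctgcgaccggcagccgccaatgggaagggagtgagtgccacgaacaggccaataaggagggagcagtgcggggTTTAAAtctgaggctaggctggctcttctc
PTTG1: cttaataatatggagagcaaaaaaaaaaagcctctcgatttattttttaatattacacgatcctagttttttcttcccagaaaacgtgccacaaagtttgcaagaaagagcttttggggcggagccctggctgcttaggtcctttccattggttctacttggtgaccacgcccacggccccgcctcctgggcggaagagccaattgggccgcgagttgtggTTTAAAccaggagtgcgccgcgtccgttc

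Overexpression of deltaNp63 in AsPC-1 was compared with mock to ask how the construct moved the cell-cycle program. Expression of 11 of the 52 members fell and none rose at an adjusted p under 0.05 (limma, Benjamini-Hochberg over all genes tested). They were 8 of 24 S-phase members and 3 of 28 mitotic members, in a comparison that called 6.51% of all genes tested lower and 0.637% higher. The S-phase members had a median log2 fold change of −0.69 and the mitotic members one of −0.25, beside −0.12 over all genes tested. All 24 S-phase members and 27 of 28 mitotic members had a fold change below 0. In bulk RNA, fewer cells in S phase and less of these transcripts per cell cannot be told apart.

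**Figure D1:**
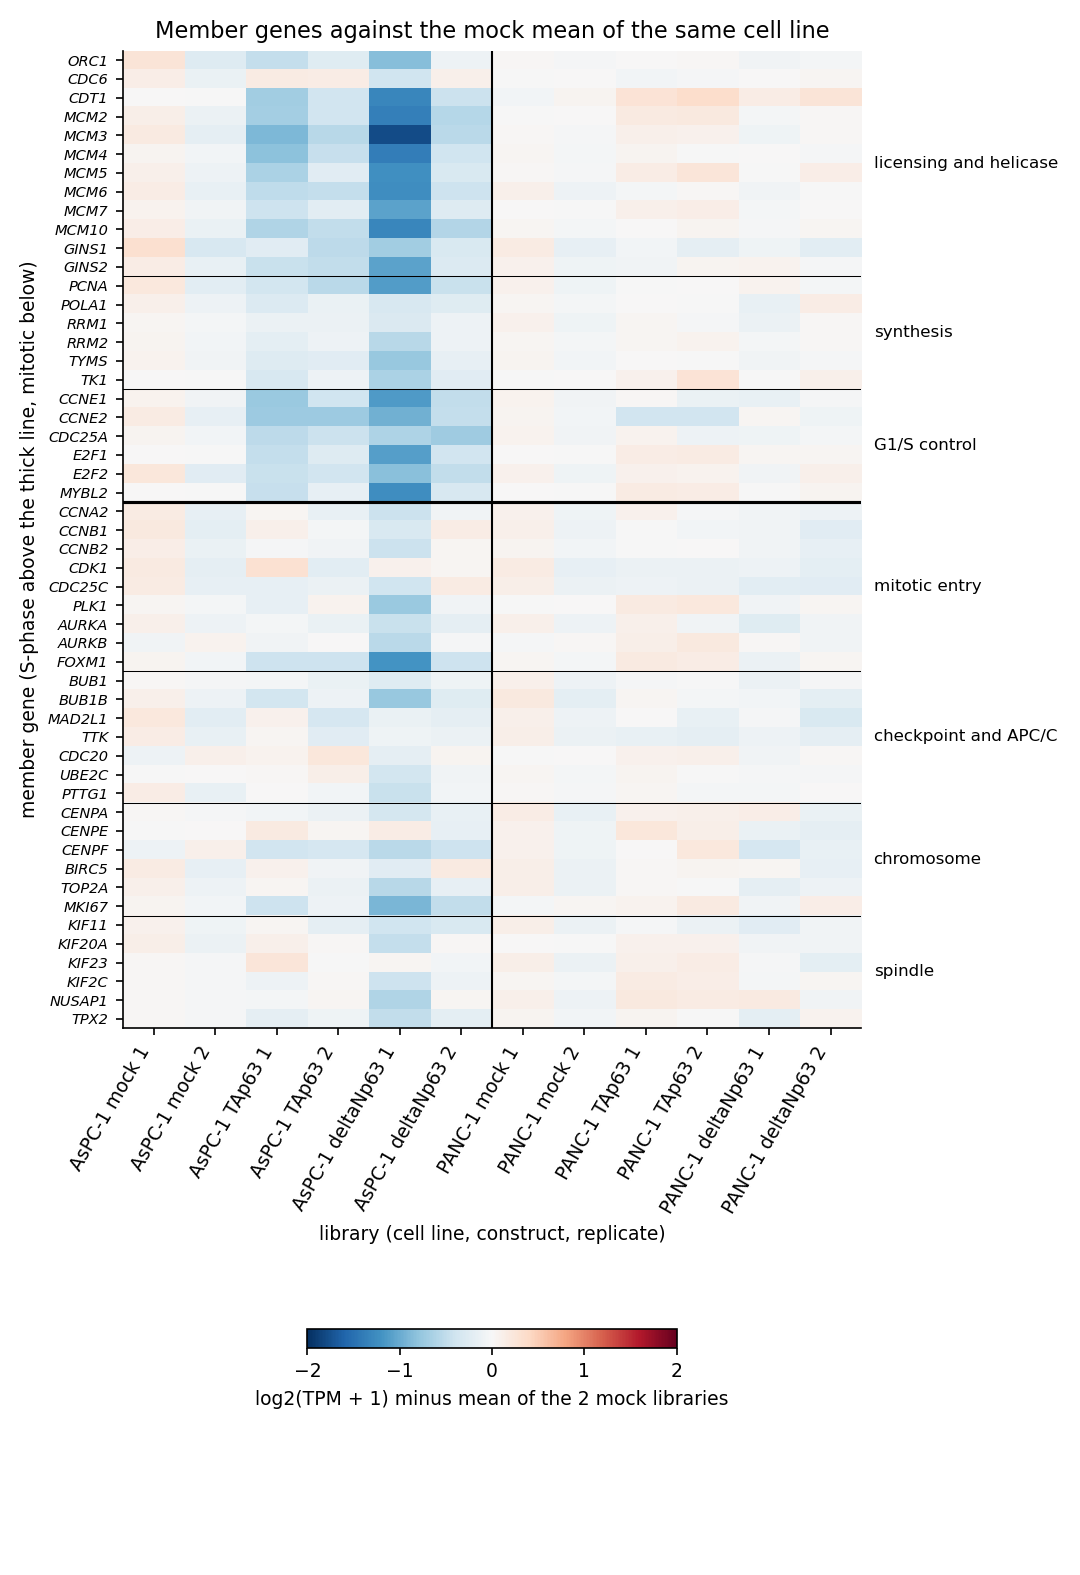
Log2(TPM + 1) of each of the 52 members in each of the 12 libraries, minus the mean of the 2 mock libraries of the same line, by colour. The S-phase rows of AsPC-1 deltaNp63 replicate 1 are the darkest blue, led by MCM3, and the PANC-1 columns stay pale.

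Among the licensing and helicase genes, 3 of 12 fell and the median fold change was −0.80. MCM2, a helicase subunit (ENSG00000073111, chr3:127598410-127622436, plus strand of hg38 in GENCODE v44, as are the coordinates below), was at 24.6 and 20.6 TPM in mock and at 8.14 and 14.9 TPM with deltaNp63. Both deltaNp63 libraries were below both mock libraries, and mean expression fell by 49.1% (log2 fold change −0.97 ± 0.21 SE, limma adjusted p = 0.0370). MCM10, which helps to activate the loaded helicase (ENSG00000065328, chr10:13161558-13211110, plus strand), was at 9.48 and 7.74 TPM in mock and at 2.88 and 5.35 TPM with deltaNp63 (log2 fold change −0.95 ± 0.19 SE, limma adjusted p = 0.0317). CDT1, which brings the helicase to origins (ENSG00000167513, chr16:88803789-88809258, plus strand), was at 25.7 and 25.5 TPM in mock and at 9.80 and 18.7 TPM with deltaNp63. Its groups did not overlap either, and the change was −0.87 ± 0.23 (SE) at a limma adjusted p of 0.0495, next to the threshold.

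MCM3 had the largest fold change of the set and did not pass. This helicase subunit (ENSG00000112118, chr6:52264014-52284881, minus strand) was at 37.6 and 29.2 TPM in mock and at 8.92 and 22.4 TPM with deltaNp63, and the 2 deltaNp63 libraries lay farther apart than the lower mock library and the higher deltaNp63 library (log2 fold change −1.16 ± 0.31 SE, limma adjusted p = 0.0519). The 6 subunits MCM2 to MCM7 together summed to 278 and 242 TPM in mock, and to 105 and 200 TPM with deltaNp63. The member of this group with the smallest change was CDC6, the loader of the helicase, at 36.5 and 30.5 TPM in mock and at 25.1 and 36.0 TPM with deltaNp63, where the groups overlapped (log2 fold change −0.15 ± 0.15 SE).

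Of the 6 members that act in DNA synthesis or make its precursors, PCNA alone passed as lower. It (ENSG00000132646, chr20:5114953-5126626, minus strand) was at 153 and 114 TPM in mock and at 60.5 and 96.9 TPM with deltaNp63, with no overlap (log2 fold change −0.78 ± 0.20 SE, limma adjusted p = 0.0480). The median of the 6 was −0.38. The subunits of ribonucleotide reductase, RRM1 and RRM2, had fold changes of −0.19 and −0.33, TYMS one of −0.46 and TK1, the thymidine kinase gene, one of −0.43. All 6 had deltaNp63 values below both mock values.

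The genes of entry into S phase had the highest share called, 4 of 6, with a median of −0.73. CCNE1, the cyclin E1 gene (ENSG00000105173, chr19:29811991-29824312, plus strand), was at 8.94 and 8.03 TPM in mock and at 3.31 and 5.72 TPM with deltaNp63 (log2 fold change −0.82 ± 0.20 SE, limma adjusted p = 0.0423). E2F1, the founding E2F factor (ENSG00000101412, chr20:33675477-33686385, minus strand), was at 31.2 and 30.9 TPM in mock and at 13.9 and 23.5 TPM with deltaNp63 (log2 fold change −0.75 ± 0.19 SE, limma adjusted p = 0.0454). The groups did not overlap for either gene, nor for any other of the 6. CCNE2, the cyclin E2 gene, and CDC25A, the phosphatase that activates the kinase of cyclin E, also fell, by 0.72 and 0.67 on the log2 scale, and are named because they complete the count. CDC25A was at 2.90 TPM in replicate 1 and 2.65 TPM in replicate 2, the only S-phase member for which replicate 2 was the lowest AsPC-1 library.

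Of the 28 mitotic members, 3 fell. FOXM1, the transcription factor of the mitotic genes (ENSG00000111206, chr12:2857680-2877174, minus strand), was at 40.5 and 37.3 TPM in mock and at 16.4 and 29.0 TPM with deltaNp63, with no overlap (log2 fold change −0.80 ± 0.20 SE, limma adjusted p = 0.0443). FOXM1 overlaps RHNO1 and ITFG2 on the opposite strand, and whether reads were assigned by strand is not given in the sources used here. MKI67, the gene of the proliferation antigen Ki-67 (ENSG00000148773, chr10:128096659-128126423, minus strand), was at 18.5 and 17.2 TPM in mock and at 9.02 and 12.4 TPM with deltaNp63 (log2 fold change −0.70 ± 0.15 SE, limma adjusted p = 0.0366). CENPF, a kinetochore protein gene named to complete the count, fell by 0.48 on the log2 scale. None of the 7 checkpoint genes and none of the 6 spindle genes passed, with medians of −0.17 and −0.27.

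The other mitotic genes followed in every comparison did not pass. CCNB1 was at 132 and 99.6 TPM in mock and at 92.8 and 127 TPM with deltaNp63, with overlapping groups (log2 fold change −0.08 ± 0.16 SE). CDK1, the kinase that cyclin B activates, was at 99.2 and 78.0 TPM in mock and at 93.1 and 90.8 TPM with deltaNp63, and was the highest member of the set (log2 fold change 0.06 ± 0.17 SE). TOP2A, the topoisomerase that untangles chromosomes, was at 54.1 and 46.6 TPM in mock and at 34.0 and 44.5 TPM with deltaNp63. Its groups did not overlap, but its adjusted p was 0.115 (limma; log2 fold change −0.36 ± 0.14 SE).

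The groups did not overlap, with deltaNp63 lower, for 21 of 24 S-phase members and 13 of 28 mitotic members, where 41.1% of all genes tested did the same. At an unadjusted limma p under 0.05, 20 S-phase and 11 mitotic members were lower, beside 25.0% of all genes. The call of single members depended on the libraries and on the scaling. None of the 11 passed in every fit that left out 1 library. Leaving out deltaNp63 replicate 2 raised the calls among the members and among all genes tested. Such counts are therefore not read as a result about the members. Without deltaNp63 replicate 1 the S-phase median was −0.35 and the mitotic median −0.08, and without replicate 2 they were −1.07 and −0.42. None of the 52 passed after quantile normalization or median centring of the libraries, although the S-phase median was then −0.54 and −0.49 and the mitotic median −0.10 and −0.04.

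**Figure D2:**
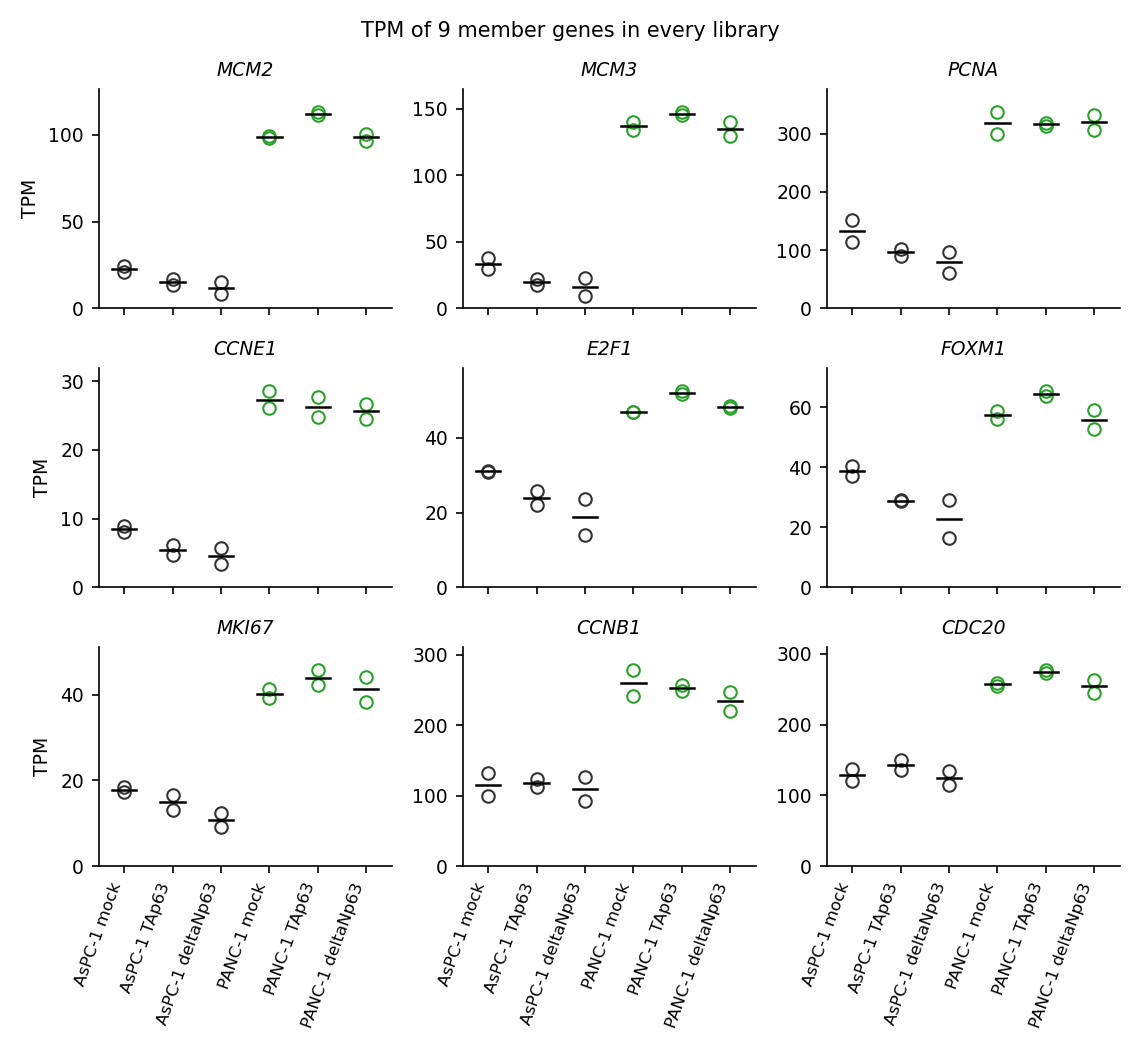
TPM of 9 members in each library, with circles for the 2 libraries of a group and a bar for their mean, AsPC-1 in black and PANC-1 in green. MCM2, CCNE1, E2F1, FOXM1 and MKI67 show both deltaNp63 libraries of AsPC-1 below both mock libraries, while CCNB1 and CDC20 overlap.

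With TAp63 in AsPC-1, no member passed the adjusted threshold, in a comparison that called 0.637% of all genes in either direction. At an unadjusted limma p under 0.05, 11 of 24 S-phase members and 1 of 28 mitotic members were lower than mock and none was higher, beside 12.8% of all genes tested lower and 2.37% higher. The S-phase members had a median log2 fold change of −0.42, with 23 of 24 below 0. The mitotic members had a median of −0.05, with 19 of 28 below 0, beside −0.08 over all genes tested. The groups did not overlap, with TAp63 lower, for 21 S-phase and 6 mitotic members, and 35.4% of all genes tested did the same.

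MCM3 had the lowest fold change with TAp63 too. It was at 17.3 and 22.2 TPM, below both mock libraries (log2 fold change −0.73 ± 0.31 SE, limma adjusted p = 0.308). MCM2 was at 13.6 and 17.1 TPM (−0.53 ± 0.21), CCNE1 at 4.64 and 6.20 TPM (−0.57 ± 0.20) and PCNA at 102 and 90.4 TPM (−0.45 ± 0.20), each below both mock libraries. E2F1 was at 22.0 and 25.8 TPM, also below mock (−0.37 ± 0.19). The summed MCM2 to MCM7 level was 170 and 204 TPM, against 278 and 242 TPM in mock. CDC6 was the exception among S-phase members, at 37.7 and 37.2 TPM and above both mock libraries (log2 fold change 0.16 ± 0.15 SE).

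By role, the licensing and helicase genes had a median of −0.48 with TAp63, the genes of entry into S phase −0.45 and the synthesis genes −0.20. The 4 mitotic roles had medians between −0.08 and −0.02. FOXM1 was the lowest mitotic member, at 28.8 and 29.1 TPM and below both mock libraries (log2 fold change −0.41 ± 0.20 SE, limma adjusted p = 0.360). CDC20 was the highest, at 135 and 151 TPM against 121 and 138 TPM in mock (log2 fold change 0.15 ± 0.10 SE). MKI67 was at 13.1 and 16.6 TPM, TOP2A at 51.3 and 46.4 TPM, CCNB1 at 124 and 112 TPM and CDK1 at 109 and 76.2 TPM. Of these 4 genes, the values of MKI67 alone lay wholly below mock. The mitotic median turned positive after quantile normalization (0.03), after median centring (0.08) and without mock replicate 1 (0.04), while the S-phase median stayed at −0.30, −0.29 and −0.31. Leaving out either deltaNp63 library raised the calls with TAp63, among the members and among all genes tested.

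**Figure D3:**
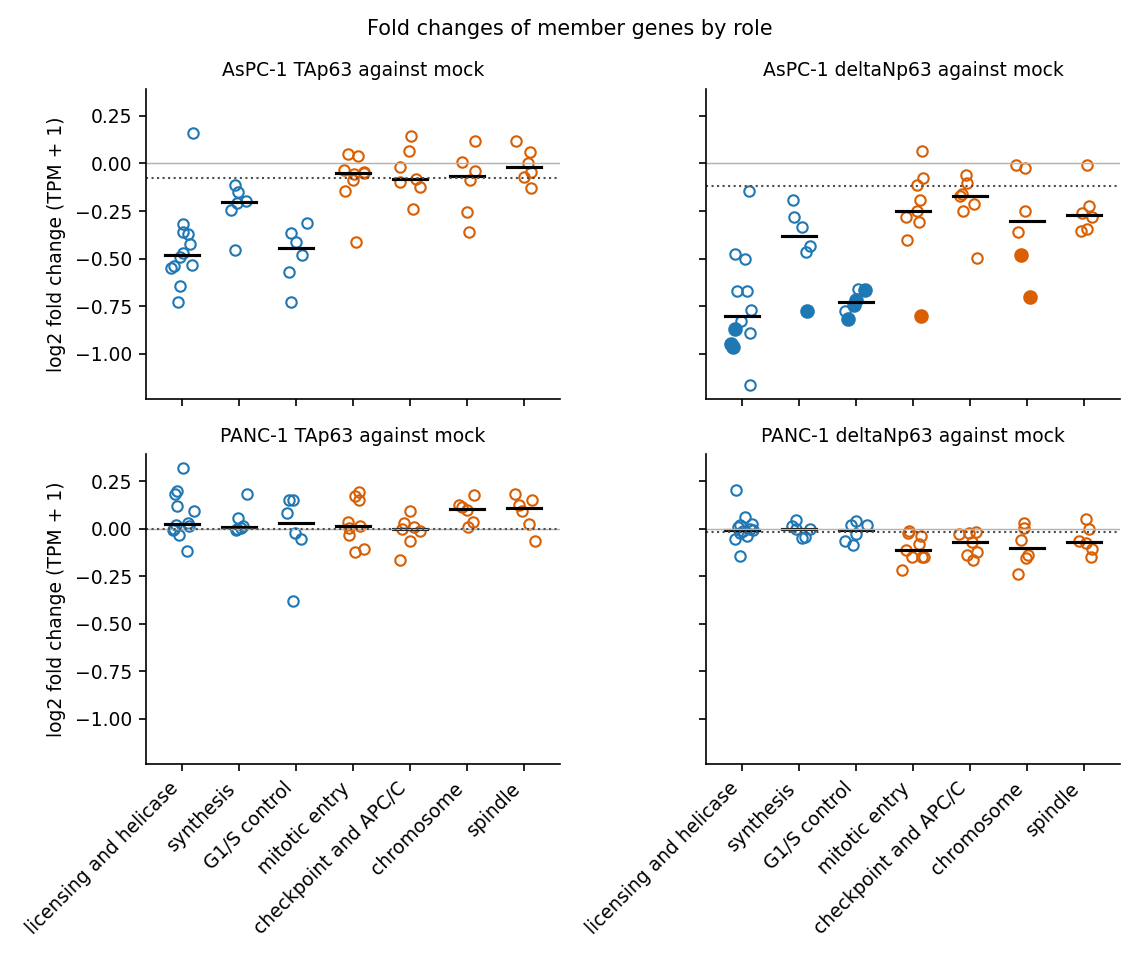
Log2 fold change of each member against mock, by role, in the 4 comparisons, with a bar for the median of a role, a dotted line for the median of all genes tested, and filled circles for members with an adjusted p under 0.05. In AsPC-1 the S-phase roles (blue) lie below the mitotic roles (orange) with both constructs, and in PANC-1 both lie near 0.

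The S-phase and mitotic sets were set against each other within each library, which removes a shift common to both. The mean log2(TPM + 1) of S-phase members, relative to the AsPC-1 mock mean, was −0.47 and −0.33 in the TAp63 libraries and −0.97 and −0.34 in the deltaNp63 libraries. That of mitotic members was −0.04 and −0.09 with TAp63 and −0.41 and −0.10 with deltaNp63. The 2 mock libraries lay 0.11 above and below their mean for S phase and 0.07 for mitosis. The S-phase minus the mitotic mean, on the same footing, was −0.43 and −0.24 in the TAp63 libraries, −0.56 and −0.24 in the deltaNp63 libraries, and 0.04 and −0.04 in mock. All 4 construct libraries of AsPC-1 were thus below both mock libraries on this measure. In PANC-1, relative to its own mock mean, it was −0.01 and 0.01 with TAp63 and −0.03 and 0.03 in mock. With deltaNp63 it was 0.05 and 0.11, above both PANC-1 mock libraries.

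The difference between the set medians, S-phase minus mitotic, was −0.37 with TAp63 and −0.44 with deltaNp63 in AsPC-1, and both comparisons share the mock libraries. The deltaNp63 value was −0.27 without replicate 1 and −0.65 without replicate 2. In single libraries, 24 of 24 S-phase members were below both mock libraries in deltaNp63 replicate 1 and 21 of 24 in replicate 2, against 23 and 15 of 28 mitotic members. In each TAp63 library 22 of 24 S-phase members were below both mock libraries, against 11 and 12 of 28 mitotic members. The share of all genes was not counted for single libraries. Both libraries of a group were below both mock libraries for 41.1% of all genes with deltaNp63 and for 35.4% with TAp63. Shares in single libraries cannot be lower than these, so the mitotic counts are not read as a result.

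**Figure D4:**
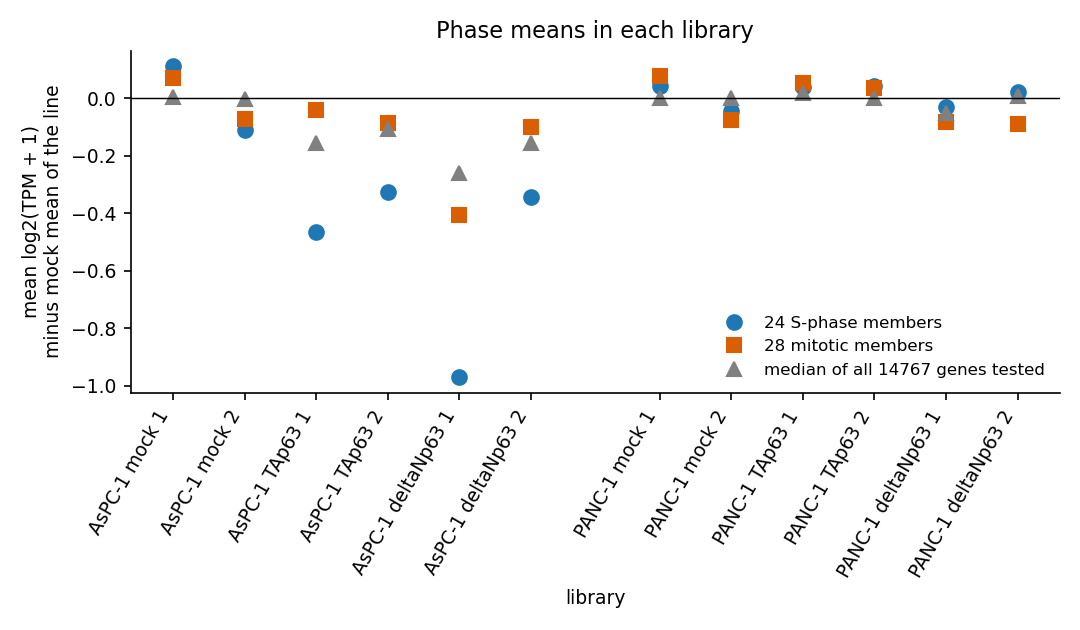
Mean log2(TPM + 1) of the 24 S-phase members (circles) and the 28 mitotic members (squares) in each library, and the median of all 14767 genes tested (triangles), each minus its mock mean in the line. The circles of the 4 AsPC-1 construct libraries lie between −0.97 and −0.33 and below their squares, and all PANC-1 points lie between −0.09 and 0.08.

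In PANC-1 no member passed the test with either construct, at TP63 levels above those of AsPC-1. The comparisons called 0.00677% of all genes with TAp63, which was TP63 alone, and 0.0406% with deltaNp63, TP63 among them. With no adjustment, 1 member was lower at a limma p under 0.05 with TAp63 and none with deltaNp63, beside 1.65% and 1.08% of all genes. That member was CCNE2, at 23.4 and 21.6 TPM in mock and at 16.9 and 17.0 TPM with TAp63 (log2 fold change −0.38 ± 0.17 SE, limma adjusted p = 1). CCNE2 overlaps INTS8 and NDUFAF6 on the opposite strand. The S-phase and mitotic medians were 0.02 and 0.03 with TAp63 and −0.004 and −0.08 with deltaNp63.

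CDT1 had the highest S-phase fold change with both constructs in PANC-1. It was at 28.8 and 31.4 TPM in mock, at 36.6 and 38.9 TPM with TAp63 and at 33.5 and 36.1 TPM with deltaNp63, and both groups lay above mock (log2 fold changes 0.32 ± 0.23 and 0.20 ± 0.23 SE). MCM2 was at 98.4 and 99.4 TPM in mock, at 112 and 113 TPM with TAp63 and at 96.5 and 101 TPM with deltaNp63. FOXM1 was at 58.7 and 56.0 TPM in mock, at 65.4 and 63.9 TPM with TAp63 and at 52.7 and 59.1 TPM with deltaNp63. For both genes the TAp63 libraries were the higher ones and the deltaNp63 libraries spanned the mock range.

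None of the other genes followed in every comparison passed in PANC-1. PCNA was between 299 and 337 TPM over the 6 libraries, CCNE1 between 24.5 and 28.5 TPM, E2F1 between 46.9 and 52.5 TPM and CDK1 between 128 and 164 TPM. MKI67 was between 38.3 and 45.6 TPM and TOP2A between 142 and 175 TPM. CCNB1 was at 278 and 242 TPM in mock and at 248 and 220 TPM with deltaNp63. The remaining extremes of the 2 comparisons were PLK1, a mitotic kinase gene (0.19), and TTK, a checkpoint kinase gene (−0.16), with TAp63, and GINS1, a subunit of the GINS complex (−0.15), NUSAP1, a spindle protein gene (0.05), and CENPF (−0.24) with deltaNp63. With deltaNp63, 25 of 28 mitotic members had a fold change below 0, beside a median of −0.02 over all genes. These values rested on mock replicate 1, which exceeded mock replicate 2 by a median of 0.18 over the mitotic members. Without it 19 of 28 were below 0 and the mitotic median was −0.01, and without mock replicate 2 they were 27 and −0.18.

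TAp63 and deltaNp63 were also compared with each other. In AsPC-1 no member passed (0.0203% of all genes called), and the lowest adjusted p was 0.628 (limma). S-phase members had a median of 0.25 and mitotic members of 0.21, TAp63 minus deltaNp63, beside 0.04 over all genes. Without adjustment, 4 mitotic members were higher with TAp63 at a limma p under 0.05, led by MKI67 (0.44 ± 0.15 SE), and no S-phase member was, beside 5.55% of all genes. MYBL2, the B-MYB gene, had the highest S-phase value, at 74.4 and 92.2 TPM with TAp63 and at 43.0 and 82.7 TPM with deltaNp63. The lowest values were those of CCNE2 (−0.01) and CDC25C, an activating phosphatase of CDK1 (−0.03). Without deltaNp63 replicate 2 some members passed, but far more of all genes tested were called than in the full model. Whether this came from that library or from the spread shared by all groups was not tested. Without deltaNp63 replicate 1 the medians were −0.05 for S-phase and 0.04 for mitotic members, so the S-phase direction rested on that library.

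In PANC-1 the comparison of the constructs called no member and 0.0271% of all genes. The medians were 0.05 for S-phase and 0.12 for mitotic members, beside 0.02 over all genes tested, and 27 of 28 mitotic members were above 0. CENPF had the highest mitotic value, at 37.7 and 43.8 TPM with TAp63 and at 29.5 and 34.0 TPM with deltaNp63 (0.35 ± 0.12 SE). CENPF and 1 other mitotic member, the kinetochore motor gene CENPE, were higher with TAp63 at an unadjusted limma p under 0.05, beside 1.65% of all genes. MCM2 had the highest S-phase value (0.19), CCNE2 the lowest (−0.36) and TTK the lowest mitotic one (−0.03).

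Whether the lines differed in their response was tested as an interaction, the effect in PANC-1 minus that in AsPC-1. For deltaNp63 no member passed, beside 0.582% of all genes, and the lowest adjusted p of a member was 0.180 (limma). At an unadjusted limma p under 0.05, 16 of 24 S-phase members and 2 of 28 mitotic members were higher in PANC-1, beside 13.7% of all genes. The S-phase median was 0.69 and the mitotic median 0.18, beside 0.11 over all genes. MCM3 had the highest S-phase value (1.14 ± 0.44 SE) and FOXM1 the highest mitotic one (0.76 ± 0.28 SE). RRM1 (0.15) and CDK1 (−0.21) had the lowest values in their sets. Without AsPC-1 deltaNp63 replicate 2 some members passed, but far more of all genes tested were called than in the full model. Without AsPC-1 deltaNp63 replicate 1 the medians were 0.37 and 0.02. The mitotic median turned to −0.01 after median centring, where that of S-phase members was 0.50.

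For TAp63 the interaction called no member and 0.0745% of all genes. The S-phase median was 0.46, the mitotic median 0.06 and that of all genes 0.09. Before adjustment, 3 S-phase members and 1 mitotic member were higher in PANC-1 at a limma p under 0.05, beside 8.51% of all genes. CDT1 had the highest S-phase value (0.86 ± 0.32 SE, limma adjusted p = 0.425) and CDC6 the lowest (−0.20), while FOXM1 (0.58) and CDK1 (−0.17) bounded the mitotic set. A different response of a single gene in the 2 lines was therefore not shown.

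The mock groups of the lines were compared to show where each line started. In mock cells 46 of 52 members were higher in PANC-1 than in AsPC-1 and none was lower (limma adjusted p under 0.05), in a comparison that called 44.6% of all genes higher and 27.9% lower. The S-phase median was 1.31, with 21 of 24 called, and the mitotic median 0.95, with 25 of 28 called, beside 0.24 over all genes tested. The 3 largest S-phase differences were those of GINS1, CCNE2 and ORC1. GINS1 overlaps NINL on the opposite strand. Its AsPC-1 values were 6.73 and 4.01 TPM and its PANC-1 values 42.6 and 34.0 TPM (log2 difference 2.65 ± 0.22 SE, limma adjusted p = 1.73e-06). CCNE2 was at 3.97 and 2.92 TPM against 23.4 and 21.6 TPM, and ORC1, the large subunit of the origin recognition complex, at 4.40 and 2.78 TPM against 21.9 and 21.0 TPM. The 2 lines were 1 line each, so these values compare AsPC-1 with PANC-1 and no wider class.

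**Figure D5:**
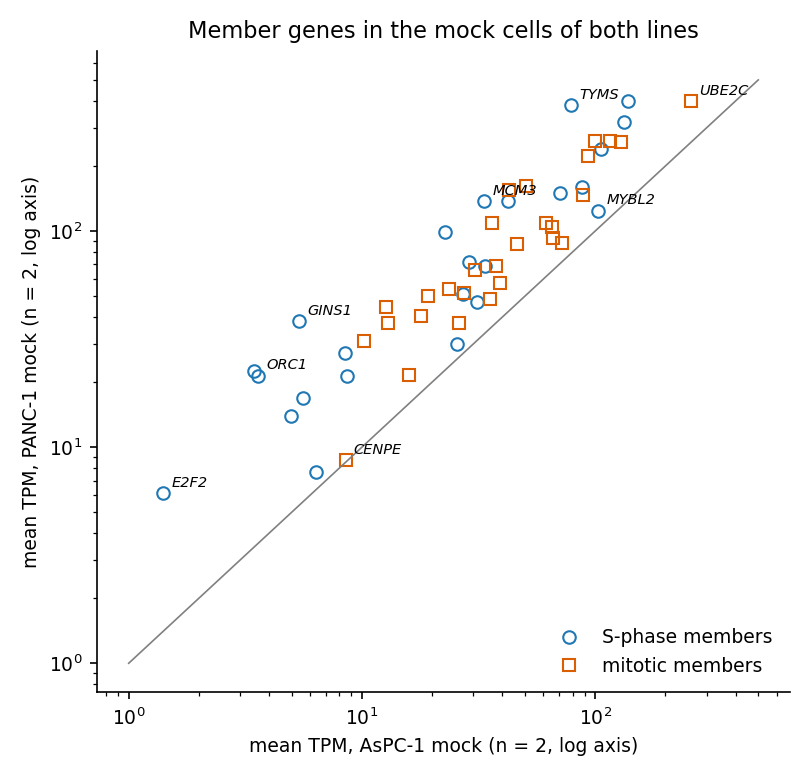
Mean TPM of each member in AsPC-1 mock (x axis) and PANC-1 mock (y axis), both on log axes, with circles for S-phase and squares for mitotic members and a line of equality. All 52 points lie on or above the line, with GINS1, ORC1 and TYMS far above it and CENPE on it.

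The largest mitotic differences were those of BIRC5, BUB1B and TOP2A. BIRC5, the survivin gene, was at 47.9 and 37.6 TPM in AsPC-1 mock and at 168 and 142 TPM in PANC-1 mock (log2 difference 1.84 ± 0.16 SE, limma adjusted p = 2.62e-06). BUB1B, a checkpoint gene that overlaps PAK6, differed by 1.73 and TOP2A by 1.66. The 6 members that did not pass were CDT1 (0.22), POLA1, the gene of the polymerase that primes replication (0.25), MYBL2 (0.27), CENPE (0.03), PLK1 (0.29) and CDC25C (0.41). All but 1 of the 52 members had PANC-1 mock values above both AsPC-1 mock values, which 52.9% of all genes did.

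UBE2C, RRM2 and PCNA were among the 4 most abundant members in both mock groups. In AsPC-1 the order was led by UBE2C, the ubiquitin-conjugating enzyme of anaphase, at 257 ± 2.62 TPM (SD, n = 2), then by RRM2 at 138 ± 6.78, PCNA at 133 ± 27.3 and CDC20 at 129 ± 11.98 TPM. The last 3 did not differ beyond their spread. In PANC-1 the order was led by RRM2 at 400.4 ± 16.5 TPM, UBE2C at 398 ± 16.0 and TYMS at 383 ± 22.0 TPM, which also lay within their spread, and then by PCNA at 318 ± 26.5 TPM. E2F2, an activating E2F factor, was the lowest in both lines, with a mean of 1.41 ± 0.52 TPM for AsPC-1 and of 6.11 ± 0.64 TPM for PANC-1.

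Longer lists of cell-cycle genes outside the 52 were read for context. With deltaNp63 in AsPC-1, 10 of 45 other S-phase genes fell and 1 rose, where 6.51% of all genes tested fell and 0.637% rose, with a median of −0.47 beside −0.12 over all genes. That median was −0.28 without deltaNp63 replicate 1 and −0.66 without replicate 2, beside −0.10 and −0.14 over all genes. Which genes passed depended on these libraries. POLD1, the catalytic subunit of the lagging-strand polymerase, was at 14.7 and 12.2 TPM in mock and at 3.40 and 8.57 TPM with deltaNp63 (log2 fold change −1.15, limma adjusted p = 0.0464). UNG, which removes uracil from DNA, fell by 0.98. PRIM2, a primase subunit with a near-identical partial copy in the genome that makes its value uncertain, rose. It was at 1.63 and 1.82 TPM in mock and at 4.22 and 3.09 TPM with deltaNp63 (log2 fold change 0.76, limma adjusted p = 0.0425). Of 50 other mitotic genes 3 fell and 1 rose, a share of falls close to the 6.51% of all genes, with a median of −0.24. Without deltaNp63 replicate 1 this median was −0.11, near the −0.10 of all genes, and without replicate 2 it was −0.33. Among the genes that passed, the spindle gene TACC3 (−0.73) and INCENP (−0.55), a partner of Aurora B, had the largest falls. CDCA3 (−0.90, limma adjusted p = 0.0516) had the lowest value of the list and did not pass. CKS2, which binds cyclin-dependent kinases, rose from 315 and 270 TPM to 496 and 396 TPM. Fewer genes of either list passed as lower without either AsPC-1 mock library or any 1 PANC-1 library.

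Of 29 genes of G1 and its brakes, 3 fell with deltaNp63 in AsPC-1 and none rose, beside 6.51% of all genes lower. CCND3, the cyclin D3 gene, was at 19.6 and 19.9 TPM in mock and at 8.98 and 11.2 TPM with deltaNp63 (log2 fold change −0.91, limma adjusted p = 0.00396). TFDP1, the partner of E2F factors, and RBL1, a retinoblastoma relative, both fell by 0.84. Fewer genes of this list passed as lower without deltaNp63 replicate 1, either AsPC-1 mock library or any 1 PANC-1 library. More passed without deltaNp63 replicate 2, where more of all genes tested passed as well. With TAp63 in AsPC-1 no gene of the 3 lists passed, and at an unadjusted limma p under 0.05 there were 18 of 45 other S-phase genes, 7 of 50 other mitotic genes and 6 of 29 G1 genes lower, beside 12.8% of all genes, to which the mitotic share was close. CDKN1A was at 281 and 344 TPM in AsPC-1 mock, at 282 and 288 TPM with TAp63 and at 300.4 and 263 TPM with deltaNp63, with overlapping groups.

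In PANC-1 none of the 3 lists held a gene that passed with either construct, and CDKN1A was between 90.3 and 112 TPM in the 6 libraries. Between the mock groups CDKN1A was lower in PANC-1 by a log2 difference of −1.64 (limma adjusted p = 1.78e-06). CDKN2A and CDKN2B, the genes of the p16 and p15 kinase inhibitors, were listed at 0 in all 6 PANC-1 libraries, and at 57.6 to 91.8 TPM and 55.9 to 81.5 TPM in AsPC-1. CDKN2C, the p18 gene, was higher in PANC-1 by 3.57, and LIN52, of the MuvB core, by 2.38. Of the other S-phase genes, CLSPN (3.30) and UNG (2.32) stood highest and GINS4 (−0.84) and RFC5 (−0.66) the lowest. Of the other mitotic genes, MELK (2.27) and DLGAP5 (2.22) stood highest and CDC25B (−1.92) and KIF18A (−0.91) lowest.

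Members with and without the promoter words were among the 11 that fell with deltaNp63. CDT1, MCM2, CDC25A and E2F1 have an E2F word in their window, PCNA has one in 1 of its 2 windows, and MCM10 and CCNE1 have none. MKI67 and CENPF have 2 CHR words each, as does TOP2A, which did not pass. FOXM1 and CCNE2 were not in the promoter table.

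The medians were similar when each gene was read from 1 transcript. The most abundant transcript of a member held a median of 84.9% of the gene's TPM for S-phase and 89.1% for mitotic members, with AURKA the lowest at 23.4%. On that transcript alone, the S-phase medians were −0.38 with TAp63 and −0.73 with deltaNp63 in AsPC-1, and the mitotic medians were −0.05 and −0.23.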

How the data were processed

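RNA from 12 libraries was prepared with a stranded mRNA kit, per the labels' protocols. The deposited values are TPM per Ensembl transcript, made by the authors, in a table of 153329 rows whose columns each sum to 1000000. The quantifier, genome build and annotation are not given in the sources used here, depth is unknown, and precision comes from the replicates alone. Rows were paired with GENCODE v44 genes (139819 rows, 91.2%, holding 89.6% to 90.5% of TPM) and summed to 39099 genes. A gene was kept where 2 or more libraries reached 1 TPM (14767 genes), and was analysed as log2(TPM + 1), a scale that understates the changes of low genes. One limma 3.58.1 model (trend, R 4.3.3) with 6 group means and 6 residual degrees of freedom gave 9 contrasts. Each contrast had two-sided p-values, with Benjamini-Hochberg adjustment over its genes and a threshold of 0.05. The planned count test did not apply to TPM. The test was also tried on simulated data.

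The members and lists were chosen with earlier results of these data known. The naming rule took 9 members in every contrast plus CDKN1A, up to 6 called members in each direction, and the extremes of each set. It also took the 3 largest called differences of each set between the mock groups, and the 2 largest called changes in each direction from each longer list. Members named outside it were chosen after their values were seen. Alternatives were limma without trend, quantile normalization, median centring, no low-value filter (27309 genes), a minimum mean of 5 TPM (10221 genes), a pseudocount of 0.1, smaller models, a replicate block, MYBL2 moved to the mitotic set, means in place of medians, and leaving out each library.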

Additional observations from a re-analysis of the deposited data

How the results depend on the processing

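For deltaNp63 against mock in AsPC-1, the 11 members called became 5 without trend, 0 after quantile normalization, 0 after median centring, 1 with no low-value filter, 18 with a mean of at least 5 TPM, 0 with only the groups compared and 0 with only the 6 libraries of the line. Leaving out 1 library gave 0 to 36 members: 1 without any single PANC-1 library, 5 without either TAp63 library of AsPC-1, 0 without either AsPC-1 mock library or deltaNp63 replicate 1, and 36 without deltaNp63 replicate 2. Fewer samples in the model leave fewer residual degrees of freedom. The cause of the other shifts was not tested. A lone library left in a group is assumed to vary like the other groups. All 11 fold changes stayed negative under every setting. The labels do not say that a shared replicate number marks a shared culture or batch. Over all genes tested, deviations of same-numbered AsPC-1 libraries correlated at 0.099, −0.094 and 0.293 between the pairs of groups, and those of PANC-1 at 0.022, 0.112 and −0.043. Over the 52 members alone they correlated at 0.353, −0.148 and 0.646 in AsPC-1 and at 0.370, 0.438 and 0.112 in PANC-1. With this number as a replicate block, 14 members and 1633 of all genes tested were called. Of the 11 members called in the full model, 10 were among them, and PCNA at a limma adjusted p of 0.0585 was not.

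Members called with TAp63 in AsPC-1 ranged from 0 to 7 over the libraries left out, with 7 without either deltaNp63 library. TAp63 against deltaNp63 in AsPC-1 ranged from 0 to 24, and the difference between the lines for deltaNp63 from 0 to 23, each highest without AsPC-1 deltaNp63 replicate 2. The mock groups gave 42 to 49 members, and the other 4 comparisons gave 0 each time. The S-phase minus mitotic median ranged from −0.65 to −0.27 for deltaNp63 against mock and from −0.085 to 0.222 for TAp63 against deltaNp63 in AsPC-1. It ranged from 0.29 to 0.48 for the line difference with TAp63 and from 0.36 to 0.73 with deltaNp63, where a pseudocount of 0.1 gave 0.63. Depth could not be judged, and a fold change of a member near 1 TPM, such as E2F2, is the least precise.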
